A study of Mus musculus with 12 samples.

Results

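The genes described here are 34 mouse enzymes and partner proteins that add histone acetyl groups, remove them, hold the removing enzymes together or read the mark, other than Tip60 itself. They were chosen by name: a probe belonged to the set where its gene name was on the list or was the newer name of a listed gene (Myst1 to Myst4 are now Kat8, Kat7, Kat6a and Kat6b, Gcn5l2 is Kat2a and Pcaf is Kat2b). The array carried 66 probes for these 34 genes, out of 41174 probes for 27670 gene names. Of the genes, 33 were found under a listed name and 1, Hdac7, under the older name Hdac7a through its accession. The question put to the data was whether loss of p400 or of Tip60 changed the RNA of related acetyltransferases or of the opposing deacetylases.

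The study depleted p400 (Ep400), an ATP-dependent chromatin remodeller, or Tip60 (named Htatip on the array and now Kat5), the complex's acetyltransferase, in E14 mouse embryonic stem cells. Cells in a well of a 6-well dish received p400, Tip60 or, as the control, EGFP esiRNA (a pool of short interfering RNAs made by enzymatic digestion) at 0.33 ng/µl with Lipofectamine 2000, and RNA was taken after 72 hr. The p400 experiment used 4 two-colour arrays on 1 slide, each holding knockdown and EGFP RNA, with knockdown RNA in Cy5 on replicates 1 and 3 and in Cy3 on replicates 2 and 4. The Tip60 experiment used 4 Tip60 and 4 EGFP single-colour arrays on 2 other slides, each slide holding arrays of both groups. The replicates are biological according to the design text, and the submitters did not use Tip60 replicate 3. It was kept out of the fit here too, and its values are printed beside the others.

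All arrays had 43379 spots, of which 27598 to 30752 per channel were well above background in the p400 experiment. The count was 25073 to 30107 for the single-colour arrays in the fit and 22188 for Tip60 replicate 3. Ep400 log2 ratios ran from -0.77 to -0.24 on the p400 arrays, a fitted log2 fold change of -0.58 ± 0.09 (SE, n = 4 arrays, limma adjusted p = 0.00556). Kat5 levels, on a log2 scale relative to the array's 75th percentile, were -0.30 to -0.19 on Tip60 replicates 1, 2 and 4, 0.04 on replicate 3 and 1.15 to 1.39 on the EGFP arrays, a log2 fold change of -1.49 ± 0.07 (SE, 3 against 4 arrays, limma adjusted p = 1.4e-05). Kat5 also fell in the p400 knockdown, by 0.43 on the log2 scale (limma adjusted p = 0.0109), so a change in the p400 arrays was measured beside a lower Kat5 level. All 9 embryonic stem cell markers on the array were well above background on every array. Of these 9, 0 rose and 3 fell with p400 knockdown, and 1 rose and 2 fell with Tip60 knockdown. All 6 markers of 2-cell-like cells rose in both knockdowns, with median log2 fold changes of 4.25 and 3.37. Their summed intensity was 8728 to 20390 in the EGFP channels and 172800 to 397700 in the p400 channels, and relative to the 75th percentile it was 29.07 to 32 on the EGFP and 168.6 to 183.5 on the 3 Tip60 arrays. Of 8 trophectoderm markers 6 rose with p400 and 3 with Tip60 knockdown, of the primitive endoderm markers tested 4 of 7 and 5 of 6 rose, and of 5 mesoderm markers 2 and 3 rose. Of 5 neural ectoderm markers 1 rose and 1 fell with p400, and 0 rose and 1 fell with Tip60 knockdown. Over all genes tested 20.1% rose and 15% fell with p400, and 15.3% rose and 10.3% fell with Tip60 knockdown. Of the feeder fibroblast markers tested 3 of 6 and 3 of 7 rose, while Dcn and Lum were not well above background in any channel of the p400 experiment. On the single-colour arrays of the fit Lum was well above background on none, and Dcn on no EGFP array but on a Tip60 array. The summed feeder intensity was 3173 to 6450 in the EGFP and 5827 to 8352 in the p400 channels. Relative to the 75th percentile it was 4.125 to 4.476 on the EGFP and 6.098 to 6.216 on the 3 Tip60 arrays. In these bulk samples a change in the share of cells of a type and a change in RNA per cell cannot be told apart, and the part of these marker changes in the values below was not tested.

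Histone acetyltransferases transfer an acetyl group from acetyl-CoA to lysines of histone tails, which loosens the contact with DNA and creates docking sites for bromodomain proteins. The MYST family (Tip60 and its paralogues), the Gcn5 and Pcaf pair and p300 with Cbp are separate families with separate complexes and preferred lysines. Deacetylases reverse the reaction: the zinc-dependent classes include Hdac1 and Hdac2, which embryonic stem cells use in the NuRD, Sin3 and CoREST complexes, and the NAD-dependent sirtuins work in the nucleus, the cytosol or the mitochondria.

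p400 knockdown changed 14 of the 34 genes (41.2%), 6 upward and 8 downward, at an adjusted p under 0.05. Over all 18691 genes tested the share was 35.2% (20.1% higher and 15% lower), so the share among these genes lay near that of the array and is no result about them as a set. The 6 that rose were Brd2, Sirt1, Ncoa3, Ncoa1, Sin3b and Sirt7, and the 8 that fell were Sirt3, Kat8, Kat2b, Hat1, Sirt5, Hdac11, Taf1 and Hdac10. The median log2 fold change was -0.03 over the 34 genes and 0.01 over all genes. The log2 ratio had the same sign on all 4 arrays for 17 of the 34 genes, against 53% of all genes tested. Every change was small: fitted values ran from -0.60 to 0.82, and 3 of the 14 (Brd2, Sirt1 and Sirt3) also passed 1.5-fold. Centring the arrays on their median in place of loess moved the median of all genes to -0.11 and the split of the calls to 3 higher and 21 lower, while all genes went from 3766 higher and 2811 lower to 2882 higher and 6784 lower. The count was 13, 8, 9 and 11 without replicate 1, 2, 3 and 4, but each of the 14 kept its direction in all 14 alternatives run on its gene-level value.

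**Figure D1:**
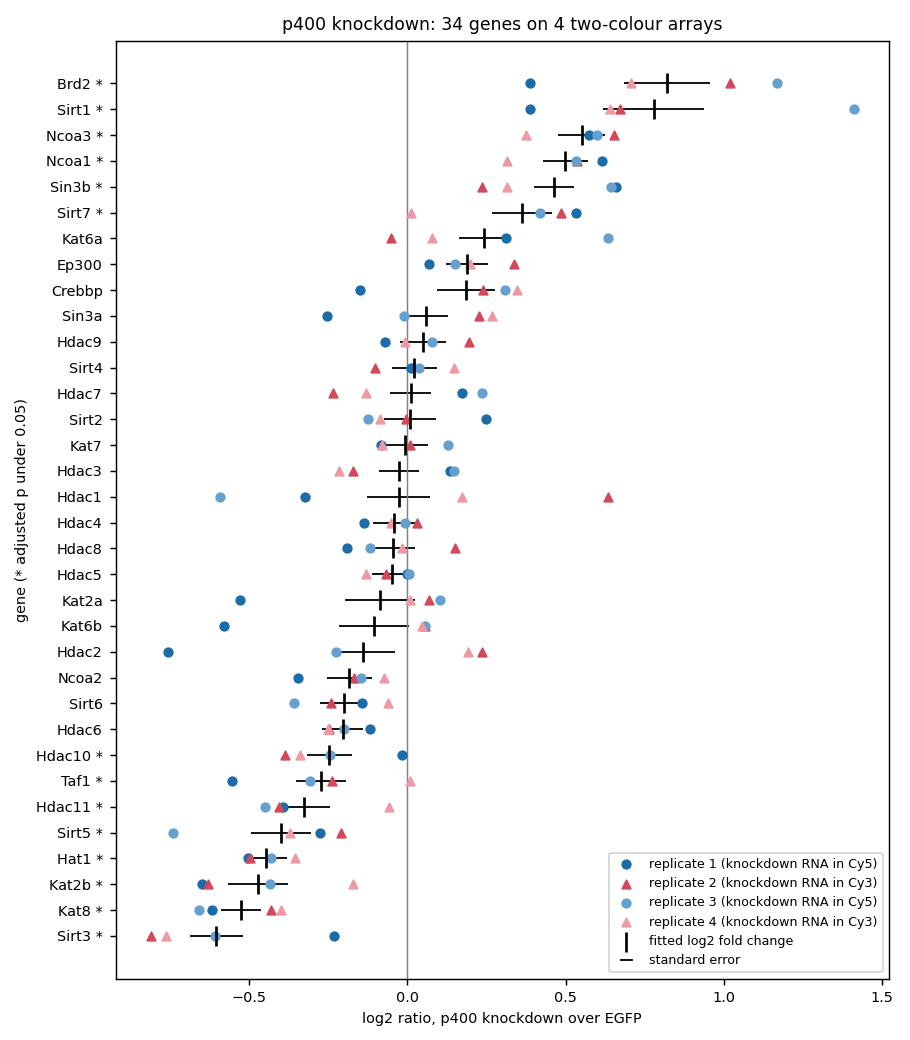
Log2 ratio of p400 knockdown over EGFP RNA on each of the 4 two-colour arrays (points, shape by the dye of the knockdown RNA) with the fitted log2 fold change (bar) and its standard error (line), for the 34 genes in order of the fitted value. Brd2 and Sirt1 lie highest and Sirt3 lowest, and for Hdac1 the Cy5 arrays lie below 0 and the Cy3 arrays above it.

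Tip60 knockdown changed 10 of the 33 genes tested (30.3%), 3 upward and 7 downward, against 25.6% of the 16949 genes tested on these arrays (15.3% higher and 10.3% lower). Ncoa1, Brd2 and Ncoa2 rose, and Taf1, Ep300, Kat2b, Kat8, Hat1, Hdac6 and Sirt3 fell. The median was -0.08 over these genes and 0.01 over all genes. Tip60 replicates 1, 2 and 4 did not overlap the EGFP arrays for 13 of the 33 genes (36.3% of all genes). None of the 10 changes reached 1.5-fold, the range being -0.45 to 0.54. Scaling by the median of the array in place of the 75th percentile moved the median of all genes to -0.20 and the members' calls to 1 higher and 16 lower (all genes, 2586 higher and 1746 lower against 1452 and 4916). Under that scaling Brd2 (0.05) and Ncoa2 (0.04) were lost. Normexp with quantile normalization lost Ncoa2, Kat2b, Hat1, Hdac6 and Sirt3, and the deposited value table lost these and Ep300.

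The Tip60 calls rested on few arrays. With slide as a block, all 10 were kept and Sirt7 (0.24, limma adjusted p = 0.034) joined them. Within the slide holding Tip60 replicates 2 and 4 and EGFP replicates 1 and 3, and within the slide holding Tip60 replicate 1 and EGFP replicates 2 and 4, all 10 had the same direction and 0 passed the threshold in these fits of 4 and 3 arrays, where 9.8% and 11.4% of all genes did. In the slide with a lone Tip60 array that array is assumed to vary like the others. The count fell to 6, 6, 7 and 5 without EGFP replicates 1 to 4 and to 2, 4 and 5 without Tip60 replicates 1, 2 and 4, and it was 10 with replicate 3 included, where Ncoa2 was lost and Sirt7 gained.

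**Figure D2:**
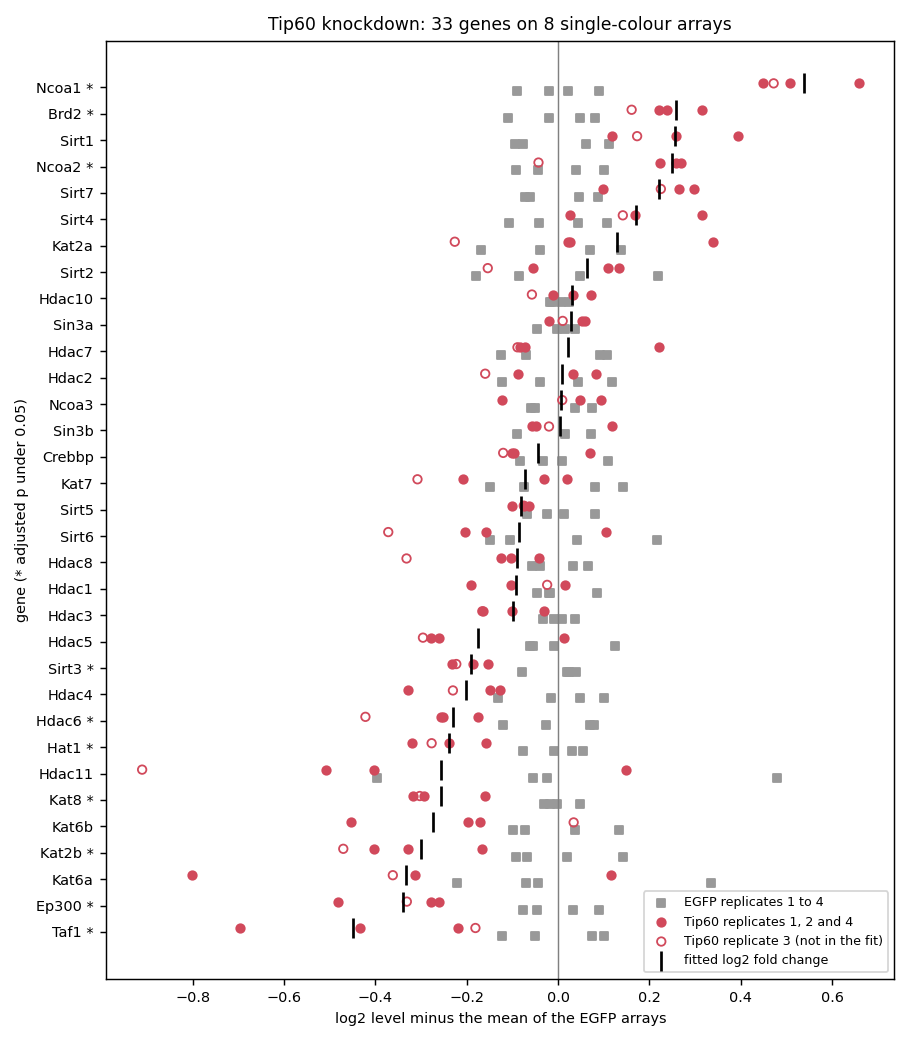
Log2 level on each single-colour array minus the mean of the 4 EGFP arrays, for the 33 genes tested in the Tip60 experiment, with EGFP arrays as grey squares, Tip60 replicates 1, 2 and 4 as filled circles, Tip60 replicate 3 as an open circle and the fitted log2 fold change as a bar. Ncoa1 stands furthest to the right, with all Tip60 arrays above all EGFP arrays, and Taf1 and Ep300 furthest to the left among the called genes.

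Among the MYST paralogues of Tip60, Kat8 was the gene called in each knockdown. Kat8 (MOF) acetylates H4K16 in the MSL and NSL complexes. Its log2 ratios on p400 arrays 1 to 4 were -0.62, -0.43, -0.66 and -0.40, all below 0, a log2 fold change of -0.53 ± 0.06 (SE, n = 4 arrays, limma adjusted p = 0.00302). Its log2 levels were 3.85, 3.90, 3.83 and 3.84 on the EGFP arrays and 3.56, 3.54, 3.55 and 3.70 on Tip60 replicates 1 to 4, so every Tip60 array lay below every EGFP array. This gave a log2 fold change of -0.26 ± 0.06 (SE, 3 against 4 arrays, limma adjusted p = 0.0163), and this call was lost without Tip60 replicate 1 or 2 (range over the arrays left out, -0.31 to -0.23). The p400 call held without any 1 array. The other three MYST genes passed in neither knockdown. Kat7 (Hbo1, an H3K14 and H4 acetyltransferase) gave -0.01 in p400 and -0.07 in Tip60 knockdown, and Kat6b (Morf) -0.11 and -0.27. Kat6a (Moz) gave 0.24 in p400 (limma adjusted p = 0.06) and -0.33 ± 0.22 in Tip60 knockdown, where its EGFP and Tip60 arrays overlapped. At gene level Kat6b lay lower on Tip60 replicates 1, 2 and 4 than on every EGFP array, while replicate 3 lay among the EGFP arrays. A second Kat6b probe, tested as a feature of its own, did fall with Tip60 knockdown, by 0.39 (limma adjusted p over all probes = 0.017). With the mean over its tested probes Kat6b passed as lower with Tip60. Kat6b and Kat6a both passed as lower with the array median as scale. Over all probes read singly, 22.7% passed in the Tip60 experiment (9.48% lower) and 33.1% in the p400 experiment.

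Of the Gcn5 and Pcaf pair, which acetylate H3K9 as the enzymes of SAGA and ATAC, Kat2b (Pcaf) fell in both knockdowns and Kat2a (Gcn5) passed in neither (-0.09 and 0.13). Kat2b log2 ratios were -0.65, -0.63, -0.44 and -0.17 on the p400 arrays, all below 0 with replicate 4 nearest to it, a log2 fold change of -0.47 ± 0.10 (SE, n = 4 arrays, limma adjusted p = 0.0137). Kat2b levels were 1.13, 0.92, 0.89 and 1.01 on the EGFP arrays and 0.66, 0.58, 0.52 and 0.82 on Tip60 replicates 1 to 4, again without overlap, a log2 fold change of -0.30 ± 0.08 (SE, 3 against 4 arrays, limma adjusted p = 0.037). The p400 call was lost without replicate 2 (-0.36 at the weakest of the values with 1 array left out), and the Tip60 call was kept in 2 of 7 such fits, those without EGFP replicate 3 or Tip60 replicate 4 (range -0.37 to -0.25). A second Kat2b probe fell further, by 0.61 in p400 and by 0.49 in Tip60 knockdown (limma adjusted p over all probes = 0.00448 and 0.00296). For Kat2a, p400 replicate 1 stood alone at -0.53 while the other arrays lay between 0.01 and 0.10.

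The paralogous coactivators p300 and Cbp acetylate H3K27 at enhancers. Ep300 (p300), as read by its brightest probe, moved differently in the knockdowns. Ep300 log2 levels were -0.79, -0.74, -0.87 and -0.90 on the EGFP arrays and -1.10, -1.09, -1.16 and -1.31 on Tip60 replicates 1 to 4, with all Tip60 arrays lower. The log2 fold change was -0.34 ± 0.08 (SE, 3 against 4 arrays, limma adjusted p = 0.0158), a call kept without any 1 array. On the p400 arrays its log2 ratios were 0.07, 0.34, 0.15 and 0.20, all above 0, but the fitted 0.19 ± 0.07 did not pass (limma adjusted p = 0.0746). The p400 effect minus the Tip60 effect was 0.53 ± 0.10 (adjusted p = 0.0477 from the limma fits, over the 16851 genes in both). This difference stayed past the threshold in 1 of the 11 fits that left out an array, that without Tip60 replicate 2, with values from 0.46 to 0.57. A second Ep300 probe gave -0.07 and -0.17 and passed in neither knockdown, and the other 2 were too dim to be tested. With each probe tested as a feature, the difference did not pass for the brightest probe (limma adjusted p = 0.0509). For the second probe the difference was 0.10 ± 0.14. The Tip60 call was lost with the mean over the tested probes. Crebbp (Cbp) passed in neither, at 0.19 ± 0.09 and -0.04 ± 0.07, and the first value was -0.08 under median centring.

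Hat1, which acetylates newly made H4 before it is deposited on DNA, fell in both knockdowns. Its log2 ratios on the p400 arrays were -0.50, -0.50, -0.43 and -0.35, the tightest set of the genes that fell by over 0.40, for a log2 fold change of -0.45 ± 0.07 (SE, n = 4 arrays, limma adjusted p = 0.00552). Hat1 log2 levels were 5.15, 5.17, 5.04 and 5.11 on the EGFP arrays and 4.88, 4.80, 4.84 and 4.96 on Tip60 replicates 1 to 4. The groups did not overlap, and the log2 fold change was -0.24 ± 0.06 (SE, 3 against 4 arrays, limma adjusted p = 0.0266). The p400 call held without any 1 array. The Tip60 call was kept only without EGFP replicate 3 or Tip60 replicate 4 (range -0.28 to -0.20).

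The nuclear receptor coactivators Ncoa1, Ncoa2 and Ncoa3 bridge hormone receptors and p300, and weak acetyltransferase activity has been described for the family. Ncoa1 rose in both knockdowns. Its log2 ratios were 0.61, 0.54, 0.53 and 0.32 on the p400 arrays, a log2 fold change of 0.50 ± 0.07 (1.41-fold, SE over 4 arrays, limma adjusted p = 0.00483). Its log2 levels were 1.35, 1.39, 1.46 and 1.28 on the EGFP arrays and 1.88, 2.03, 1.84 and 1.82 on Tip60 replicates 1 to 4, with every Tip60 array above every EGFP array. The log2 fold change was 0.54 ± 0.07 (1.45-fold, 3 against 4 arrays, limma adjusted p = 0.00177), and the difference between the knockdowns was -0.04 ± 0.10. It was the only gene of the set still called in the Tip60 fit with no filter on dim probes and in the fit with the replicate number as a block, and its calls held without any 1 array. With p400 arrays centred on the median the p400 value was 0.20 and did not pass.

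Ncoa3 rose with p400 knockdown and did not pass with Tip60 knockdown. Its log2 ratios were 0.57, 0.65, 0.60 and 0.37 on the p400 arrays, all above 0, a log2 fold change of 0.55 ± 0.07 (SE, n = 4 arrays, limma adjusted p = 0.00415), lost under median centring (0.23). Its log2 levels overlapped between the single-colour groups, from 3.56 to 3.70 on the EGFP arrays and 3.50 to 3.72 on Tip60 replicates 1, 2 and 4, and the log2 fold change was 0.01 ± 0.07. The difference between the knockdowns was 0.54 ± 0.10 (adjusted p = 0.0468 from the limma fits). No fit that left out 1 array kept this difference past the threshold (values 0.47 to 0.61), and with the p400 arrays centred on the median it was 0.22 (limma adjusted p = 0.166). A second Ncoa3 probe rose by 0.41 in the p400 fit of single probes (limma adjusted p = 0.0134), and the third gave 0.13 ± 0.12.

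The probes of Ncoa2 disagreed and Taf1 was read by several, so sequences of probes whose values are given singly are shown. The build of the positions is mm7, as the scanner headers state, and the first 30 of each probe's 60 bases are shown, 5′ to 3′. Which exon each lies in was not analysed here.
Ncoa2 probe A_52_P335636, chr1:13286151-13286210, minus strand: tggtgtgaatttaaaattttctagttgttt
Ncoa2 probe A_52_P21971, chr1:13288004-13288063, minus strand: aaatgagagaacttactaatgaaatcaaca
Taf1 probe A_51_P139400, chrX:96927586-96927645, plus strand: catcaagttggggcagtgagactggaattc
Taf1 probe A_52_P182843, chrX:96927305-96927364, plus strand: atagattacagggatgtagctataaatctc

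For Ncoa2 the probe A_52_P21971 rose in both knockdowns as a single feature, by 0.37 ± 0.10 with p400 and 0.25 ± 0.06 with Tip60 (limma adjusted p over all probes = 0.0341 and 0.0284). Its p400 log2 ratios were 0.13, 0.54, 0.59 and 0.23. Its log2 levels were -2.35, -2.54, -2.41 and -2.49 on the EGFP arrays and -2.22, -2.18, -2.49 and -2.19 on Tip60 replicates 1 to 4, so replicate 3 lay among the EGFP arrays. The probe A_52_P335636, downstream in the same transcript direction, gave -0.18 and -0.15, past the threshold in neither. A further tested Ncoa2 probe gave -0.04 with p400 and 0.03 with Tip60 and passed in neither. The mean over the tested probes did not pass with Tip60 knockdown. Because the brightest probe represented a gene, Ncoa2 was counted as not called in p400 through A_52_P335636 and as risen in Tip60 knockdown through A_52_P21971. The Tip60 call was kept without EGFP replicate 1, 2 or 3 but not without EGFP replicate 4 or any Tip60 array (range 0.22 to 0.28), nor with replicate 3 included.

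Taf1, the largest subunit of TFIID and a bromodomain protein, has 6 probes, all well above background. The p400 arrays gave it -0.55, -0.24, -0.31 and 0.01 through A_51_P139400, 3 of 4 below 0, a log2 fold change of -0.27 ± 0.08 (SE, n = 4 arrays, limma adjusted p = 0.0432) that was lost without any of the 4 arrays (range -0.34 to -0.21). This probe and its neighbour A_52_P182843 also fell with Tip60 knockdown when read as single features (-0.25 and -0.27, limma adjusted p over all probes = 0.0177 and 0.0444). At gene level Taf1 was read in the Tip60 experiment by another probe. Its log2 levels there went from 0.72, 0.88, 0.85 and 0.65 on the EGFP arrays to 0.34, 0.56, 0.59 and 0.08 on Tip60 replicates 1 to 4, with no overlap and a log2 fold change of -0.45 ± 0.12 (3 against 4 arrays, limma adjusted p = 0.0295). The gene-level Tip60 call was kept without EGFP replicate 3, EGFP replicate 4 or Tip60 replicate 2 alone (range -0.57 to -0.27). The 6 probes did not all move the same way with p400 knockdown, and the mean over them passed in neither fit (-0.02 with p400 and -0.29 with Tip60). No shared direction was therefore read for Taf1.

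**Figure D3:**
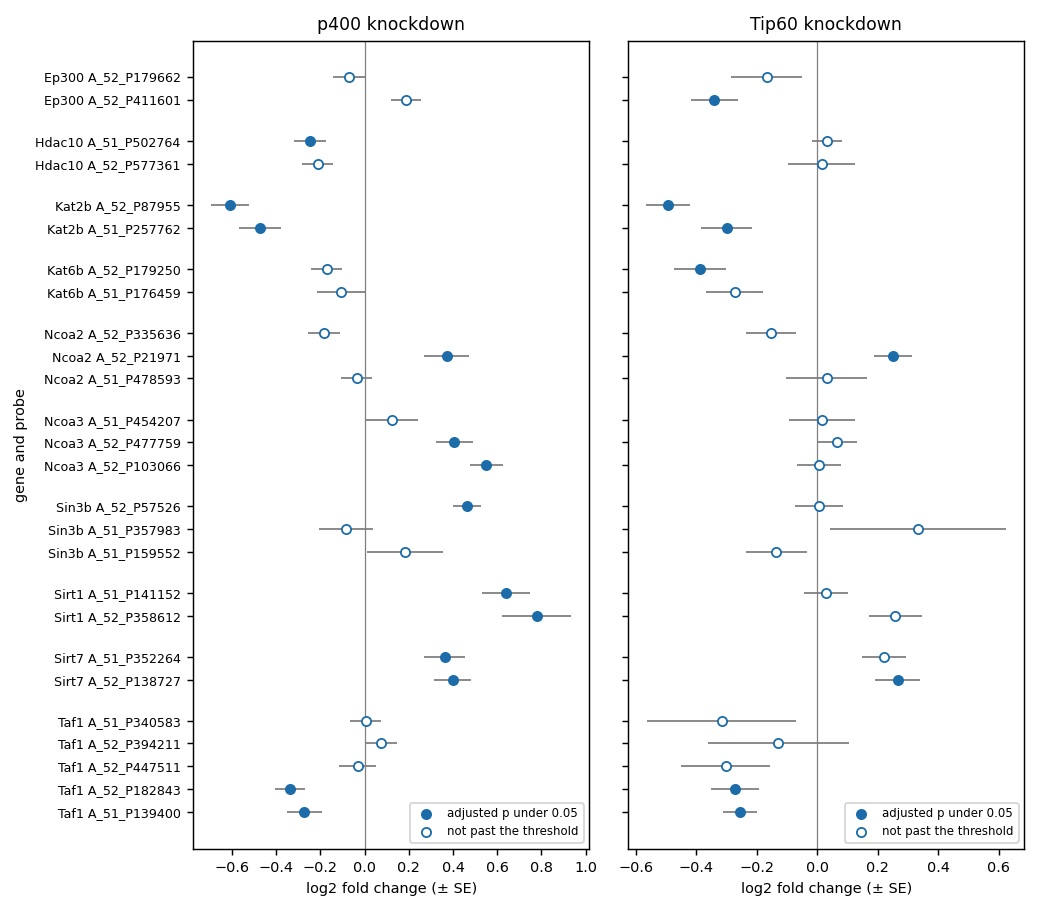
Log2 fold change with its standard error for tested probes of the genes with several tested probes and at least 1 past the threshold, in the p400 (left) and the Tip60 (right) fit of single probes, filled where the adjusted p over all probes was under 0.05. Taf1 is drawn with 5 of its 6 probes. Probes of Kat2b and Sirt7 lie side by side, whereas Ncoa2 has 1 probe at 0.37 and another at -0.18 in the p400 fit.

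Of 11 classical deacetylases 2 passed in the p400 fit (18.2%, against 35.2% of all genes) and of 10 tested 1 passed in the Tip60 fit (10%, against 25.6%), all downward (15% and 10.3% of all genes). None of the 4 class I genes passed in either: Hdac1, Hdac2, Hdac3 and Hdac8 lay between -0.14 and -0.03 with p400 (limma adjusted p from 0.318 to 0.851) and between -0.10 and 0.01 with Tip60 knockdown (0.216 to 0.949). The 95% interval for Hdac1 was -0.27 to 0.21 in the p400 fit and -0.25 to 0.06 in the Tip60 fit. Its p400 log2 ratios were -0.32, 0.63, -0.59 and 0.17, so the sign followed the dye, below 0 with knockdown RNA in Cy5 and above 0 in Cy3. Hdac2 had the same order, at -0.76 and -0.23 in Cy5 against 0.23 and 0.19 in Cy3. Under median centring of the p400 arrays Hdac1, Hdac2 and Hdac3 passed as lower (-0.38, -0.41 and -0.31), among the 21 genes lower under that setting. With the array median as scale in the Tip60 fit, Hdac1, Hdac3 and Hdac8 passed as lower (-0.30, -0.31 and -0.30), among the 16 genes lower there.

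Hdac11, the class IV enzyme, and Hdac10, a class IIb enzyme that deacetylates polyamines, fell with p400 knockdown. Hdac11 log2 ratios were -0.39, -0.41, -0.45 and -0.06, a log2 fold change of -0.33 ± 0.08 (SE, n = 4 arrays, limma adjusted p = 0.0253), kept only when replicate 4 was left out (range -0.41 to -0.24). Hdac10 log2 ratios were -0.02, -0.39, -0.24 and -0.34, a log2 fold change of -0.25 ± 0.07 (limma adjusted p = 0.0408), kept only when replicate 1 was left out (range -0.30 to -0.19). All 4 arrays were below 0 for each, with 1 array close to 0. In Tip60 knockdown Hdac11 gave -0.26 ± 0.23, with overlapping groups, and Hdac10 0.03 ± 0.05.

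Hdac6, the cytoplasmic tubulin deacetylase, fell with Tip60 knockdown. Its log2 levels were 2.69, 2.50, 2.70 and 2.60 on the EGFP arrays and 2.37, 2.45, 2.20 and 2.37 on Tip60 replicates 1 to 4, without overlap. This gave a log2 fold change of -0.23 ± 0.07 (SE, 3 against 4 arrays, limma adjusted p = 0.0405), kept only when EGFP replicate 2 was left out (range -0.27 to -0.20). With p400 knockdown it gave a near value, -0.20 ± 0.06, on the other side of the threshold (limma adjusted p = 0.0511). Hdac4, Hdac5 and Hdac7, the class IIa enzymes tested in both, passed in neither, at -0.04, -0.05 and 0.01 with p400 and -0.20, -0.18 and 0.02 with Tip60. Hdac4 and Hdac5 did pass as lower with median centring of the p400 arrays and with the array median as scale in the Tip60 fit. Hdac9 gave 0.05 in the p400 fit. It was not tested in the Tip60 fit, since its brightest probe was well above background on 2 of 4 EGFP and 2 of 3 Tip60 arrays, with log2 levels of -5.73 to -5.32 and, for replicates 1, 2 and 4, -6.44 to -5.44.

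Of the 7 sirtuins, 4 changed with p400 knockdown (57.1%, against 35.2% of all genes), 2 in each direction, and 1 with Tip60 knockdown (14.3%, against 25.6%). Sirt1, the nuclear deacetylase of histones and of p53, had log2 ratios of 0.39, 0.67, 1.41 and 0.64 on the p400 arrays, all above 0 with replicate 3 furthest. The log2 fold change was 0.78 ± 0.16 (1.72-fold, SE over 4 arrays, limma adjusted p = 0.0142), kept in all 14 alternatives, and it was 0.52 without replicate 3 and 0.45 under median centring. A second Sirt1 probe rose by 0.64 (limma adjusted p over all probes = 0.00809). In the Tip60 experiment the levels were 2.51, 2.67, 2.72 and 2.53 on the EGFP arrays and 2.87, 3.00, 2.78 and 2.73 on Tip60 replicates 1 to 4. The groups did not overlap, but 0.26 ± 0.09 did not pass (limma adjusted p = 0.0688), the second probe gave 0.03, and the difference between the knockdowns was 0.52 ± 0.18 (limma adjusted p = 0.149).

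Sirt7, the nucleolar sirtuin, rose with p400 knockdown. Its log2 ratios were 0.53, 0.49, 0.42 and 0.01, a log2 fold change of 0.36 ± 0.09 (SE, n = 4 arrays, limma adjusted p = 0.0296), kept only when replicate 4 was left out (range 0.24 to 0.48) and lost under median centring (0.08). With Tip60 knockdown it gave 0.22 ± 0.07 (limma adjusted p = 0.0639), and an overlapping second probe was called in both knockdowns, at 0.40 and 0.27.

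Sirt3 and Sirt5 are mitochondrial, and both fell with p400 knockdown. Sirt3 log2 ratios were -0.23, -0.81, -0.61 and -0.76, all below 0 with replicate 1 nearest to it. The log2 fold change was -0.60 ± 0.08 (1.52-fold lower, SE over 4 arrays, limma adjusted p = 0.00436), kept in all 14 alternatives. Sirt3 log2 levels were 2.98, 3.10, 3.08 and 3.09 on the EGFP arrays and 2.88, 2.91, 2.84 and 2.83 on Tip60 replicates 1 to 4. The groups did not overlap, and the log2 fold change of -0.19 ± 0.05 passed (3 against 4 arrays, limma adjusted p = 0.0367) but was kept only when EGFP replicate 1 was left out (range -0.22 to -0.17). The difference between the knockdowns was -0.41 ± 0.10 (limma adjusted p = 0.0714). Sirt5 log2 ratios were -0.27, -0.21, -0.74 and -0.37, a log2 fold change of -0.40 ± 0.09 (limma adjusted p = 0.022), kept only when replicate 1 was left out (range -0.52 to -0.28). Its Tip60 value was -0.08 ± 0.05. Sirt2, Sirt4 and Sirt6 passed in neither knockdown.

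Sin3a and Sin3b are the scaffolds on which Hdac1 and Hdac2 act. Sin3b log2 ratios were 0.66, 0.24, 0.64 and 0.32 on the p400 arrays, all above 0 and higher with knockdown RNA in Cy5, a log2 fold change of 0.46 ± 0.06 (SE, n = 4 arrays, limma adjusted p = 0.00434), lost under median centring (0.12). Its 2 other probes gave 0.18 and -0.08 and did not pass, and the mean over the probes did not either. In the Tip60 experiment it gave 0.00 ± 0.08, from 3 EGFP arrays, as the spot of replicate 3 was flagged as an outlier. Sin3a gave 0.06 and 0.03.

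Brd2, a BET protein that binds acetylated H4, had the highest value of the set in the p400 fit. Its log2 ratios were 0.39, 1.02, 1.17 and 0.71, all above 0 with replicate 1 lowest, a log2 fold change of 0.82 ± 0.14 (1.77-fold, SE over 4 arrays, limma adjusted p = 0.00743), kept in all 14 alternatives. Brd2 log2 levels were 5.53, 5.69, 5.62 and 5.72 on the EGFP arrays and 5.86, 5.96, 5.80 and 5.88 on Tip60 replicates 1 to 4, every Tip60 array being above every EGFP array. The log2 fold change was 0.26 ± 0.06 (1.20-fold, 3 against 4 arrays, limma adjusted p = 0.023), kept without EGFP replicate 1, 2 or 4 only (range 0.22 to 0.29) and lost with the array median as scale (0.05). The p400 effect minus the Tip60 effect was 0.56 ± 0.15 and did not pass (limma adjusted p = 0.0879).

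Across the families, 7 of the 33 genes tested in both experiments were called in the same direction in both at gene level (21.2%, against 16.3% of all genes): Brd2 and Ncoa1 higher (10.6% of all genes were higher in both), and Hat1, Kat2b, Kat8, Sirt3 and Taf1 lower (5.74%). Taf1 was read through a different probe in each fit, its probes disagreed with p400, and it is not read as a change in one direction. No gene was called in opposite directions as read by its brightest probe (0.297% of all genes), a count that single probes could change. The difference between the knockdowns passed for 2 of 33 genes, Ep300 and Ncoa3, both higher with p400, against 4.3% of all genes (2.26% higher and 2.05% lower with p400). Among the 13 acetyltransferases and coactivators 6 (46.2%) were called with p400 and 7 (53.8%) with Tip60, Taf1 in each and Ncoa2 with Tip60 among them. Classical deacetylases had 2 of 11 (18.2%) and 1 of 10 tested (10%), and the 7 sirtuins 4 (57.1%) and 1 (14.3%). Over all genes 35.2% were called with p400 and 25.6% with Tip60, and no difference between families was read from these small counts. One experiment was read as ratios within an array and the other as single-colour levels, so no size difference was read outside the test of the difference between the knockdowns.

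**Figure D4:**
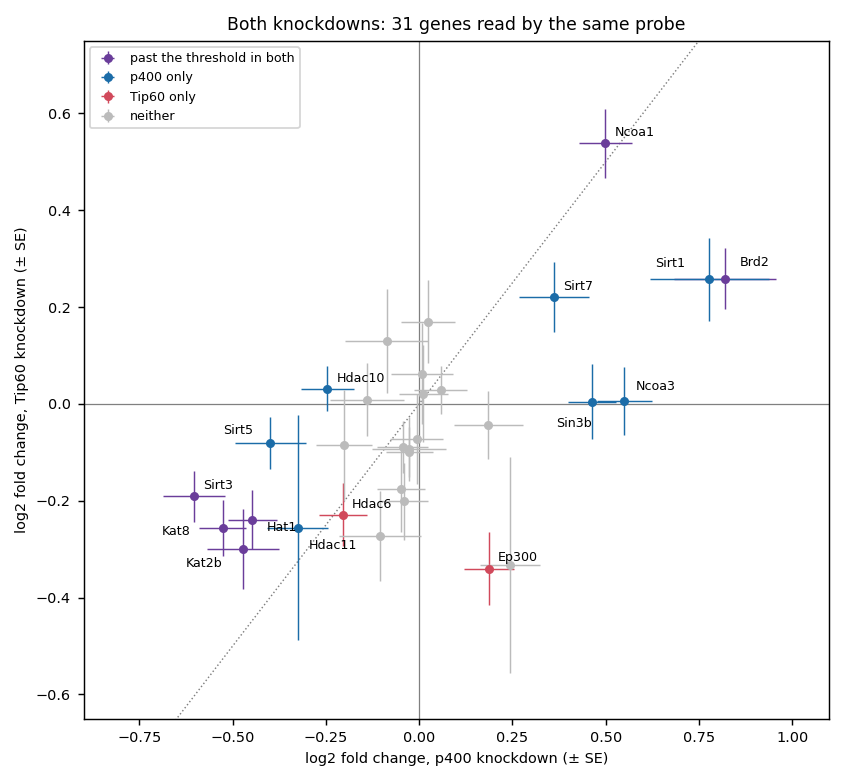
Log2 fold change with its standard error in the p400 (horizontal) and Tip60 (vertical) fits for the 31 genes read by the same probe in both, coloured by the fits in which they were called, with a dotted line of equal values. Ncoa1 lies near the line at 0.50 and 0.54, Ncoa3 and Sin3b lie at 0.55 and 0.46 with Tip60 values near 0, and Ep300 lies at 0.19 and -0.34.

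The promoters of the genes counted as called the same way in both knockdowns were read from the RefSeq promoter table (build GRCm38.p6), which held 28 of the 34 genes. Hat1 and Ncoa1, which have a single start site there, are printed, as the 250 bases before the start, 5′ to 3′ on the gene's strand. Taf1, whose probes disagreed, also has a single start site there and is not printed. Capitals mark exact matches on either strand to any of 3 motifs. The first is the E-box, CACGTG. The GC box was searched as GGGCGGG. The core bound by ETS-type factors was searched as CCGGAAG.
Hat1, chr2:71389010-71389259, plus strand: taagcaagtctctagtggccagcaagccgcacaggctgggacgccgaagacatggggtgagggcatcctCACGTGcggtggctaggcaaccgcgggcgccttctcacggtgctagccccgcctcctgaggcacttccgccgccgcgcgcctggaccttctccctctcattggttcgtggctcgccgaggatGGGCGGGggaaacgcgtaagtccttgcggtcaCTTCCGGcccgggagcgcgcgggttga
Ncoa1, chr12:4477183-4477432, minus strand: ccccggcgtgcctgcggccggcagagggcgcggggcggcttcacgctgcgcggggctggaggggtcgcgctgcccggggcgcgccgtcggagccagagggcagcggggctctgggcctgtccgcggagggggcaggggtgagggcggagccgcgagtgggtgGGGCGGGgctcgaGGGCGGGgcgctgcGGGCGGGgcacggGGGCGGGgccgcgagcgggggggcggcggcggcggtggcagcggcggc
The Hat1 window held all 3 motifs, 1 of each. The Ncoa1 window held 4 GC boxes and was 85.6% G or C, against a median of 52.4% over all windows in the table. Over the 40 windows of the 28 genes, a GC box was present in 47.5%, the ETS-type core in 12.5% and the E-box in 5%, against 23.4%, 6.91% and 6.02% of the 32851 windows of the same length in the table. The part of base composition in these shares was not tested. Of the 7 genes counted, 6, 3 and 1 had a match in at least 1 window, but genes with several start sites had more windows to match.

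The partners of these enzymes were followed as lists, and no result about a list as a set was read. Of 33 NuRD, CoREST, Sin3 and NCoR subunits, 3 rose and 3 fell with p400 knockdown (18.2% called, against 35.2% of all genes). With Tip60 knockdown 1 rose and 6 fell (21.2%, against 25.6%), and the medians were -0.04 with p400 and -0.09 with Tip60. Mta1 and Mta3, alternative NuRD subunits, fell in both knockdowns, by 0.49 and 0.46 with p400 and by 0.34 and 0.47 with Tip60, and Arid4b, a Sin3 subunit, by 0.33 and 0.30. Chd4, the NuRD remodeller, rose with p400 (0.76 ± 0.22, limma adjusted p = 0.0414) and gave -0.32 ± 0.13 with Tip60 (limma adjusted p = 0.155). Brms1 (0.37) and Sap30l (0.27, turning to -0.07 under median centring) rose with p400, and Gps2 of the NCoR complex rose with Tip60 (0.36). The Mta1 and Mta3 calls held without any 1 array. The Chd4 call was lost without p400 replicate 1 or 3 (range 0.39 to 1.12) and under median centring, that of Brms1 without replicate 2 or 3 (0.31 to 0.44) and under median centring (0.09), and those of Sap30l (0.22 to 0.31) and Arid4b (-0.43 to -0.22) without replicate 1, 2 or 4. With Tip60, Arid4b was kept only without EGFP replicate 3 (-0.35 to -0.22), and Gps2 was lost without EGFP replicate 2 or 4 or Tip60 replicate 1 or 2 (0.30 to 0.41) and with the array median as scale (0.15).

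Of 37 SAGA, ATAC, MSL, NSL, Hbo1 and Moz-Morf subunits, 6 rose and 7 fell with p400 (35.1%, against 35.2% of all genes). With Tip60 2 rose and 4 fell (16.2%, against 25.6%), and the medians were 0.01 with p400 and -0.09 with Tip60. The SAGA subunits Supt3 (0.38 and 0.25) and Sgf29 (0.37 and 0.30) rose in both, and Eny2 (0.40) and Atxn7l3 (0.51), of the SAGA deubiquitinating module, rose with p400. Ing4, of the Hbo1 complex, fell by 0.62 and by 0.27, and Yeats2 of ATAC fell with Tip60, by 0.28. Grouped after their values were seen, the 9 MSL and NSL subunits on the array, partners of Kat8, had 4 that fell and 0 that rose with p400 (Msl1 -0.61, Phf20 -0.55, Msl3 -0.30 and Kansl1 -0.22) and 2 that fell and 0 that rose with Tip60 (Kansl1 -0.51 and Msl1 -0.46). Over all genes 15% fell and 20.1% rose with p400 and 10.3% fell and 15.3% rose with Tip60, and nothing is read from this grouping. Of these and the other named partners, Ing4, Msl1 and Phf20 in the p400 fit and Msl1, Kansl1, Sgf29 and Yeats2 in the Tip60 fit held without any 1 array. In the p400 fit Kansl1 was lost without any of the 4 (range -0.23 to -0.20), Eny2 (0.35 to 0.44) and Supt3 (0.34 to 0.42) without replicate 2, Sgf29 (0.27 to 0.47) without replicate 1 or 2, and Atxn7l3 (0.34 to 0.68) without replicate 3 or 4. In the Tip60 fit Ing4 (-0.30 to -0.23) was lost without Tip60 replicate 2 or 4 and Supt3 (0.21 to 0.27) without Tip60 replicate 1. Median centring ended the p400 calls of Eny2 (0.08), Supt3 (0.16) and Sgf29 (0.08), and the array median as scale those of Supt3 (0.04) and Sgf29 (0.09) with Tip60. Normexp with quantile normalization ended the Tip60 calls of Supt3 and Yeats2, and the deposited value table that of Yeats2.

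Of 16 bromodomain readers, 3 rose and 2 fell with p400 (31.2%, against 35.2% of all genes) and 1 rose and 2 fell with Tip60 (18.8%, against 25.6%). Brdt, the testis BET protein, rose in both (0.68 and 0.71), and the BET protein Brd3 rose with p400 (0.37) and gave -0.16 with Tip60. Phip fell in both (-0.29 and -0.36), Atad2 with p400 (-0.26) and Cecr2 with Tip60 (-0.22). Of the 18 genes of the Tip60-p400 complex, both targets included, 3 rose and 5 fell with p400 (44.4%, against 35.2% of all genes). With Tip60 0 rose and 2 fell (11.1%, against 25.6%). Trrap, shared with SAGA (0.58), Epc1 (0.54) and Ruvbl1 (0.41) rose with p400, and Mbtd1 fell in both (-0.26 and -0.28). Brdt in both fits, Phip and Mbtd1 in the Tip60 fit and Trrap, Epc1 and Ruvbl1 in the p400 fit held without any 1 array. The Brdt call with Tip60 was lost with normexp and quantile normalization and in the deposited value table. In the p400 fit Mbtd1 was lost without any of the 4 arrays (range -0.30 to -0.22), Brd3 (0.28 to 0.46) without replicate 2, 3 or 4, and Phip (-0.35 to -0.22) and Atad2 (-0.34 to -0.18) without replicate 1, 2 or 4. In the Tip60 fit Cecr2 (-0.24 to -0.18) was kept only without EGFP replicate 4 or Tip60 replicate 1. Under median centring the p400 calls of Epc1 (0.26), Ruvbl1 (0.06) and Brd3 (0.06) were lost.

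**Figure D5:**
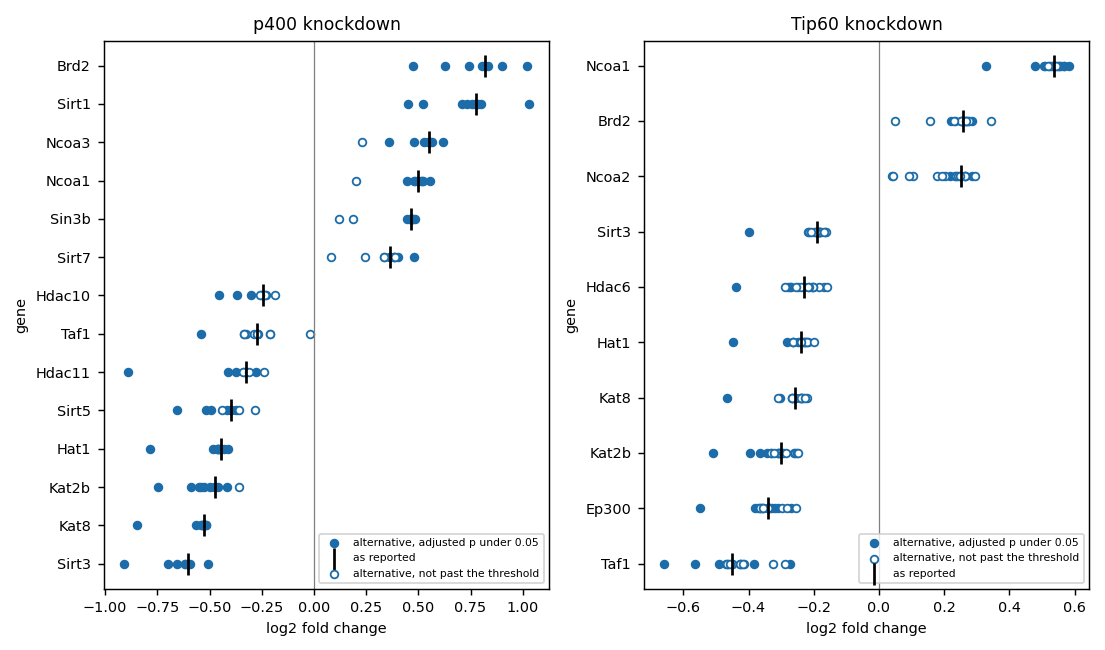
Log2 fold change of each called gene as reported (bar) and under each alternative (points, filled where the adjusted p was under 0.05), in the p400 (left, 14 genes) and Tip60 (right, 10 genes) experiments, without the alternative that adds a fold limit. All points stay on their side of 0, while filled points are few for Taf1 in p400 and for Sirt3, Hdac6 and Ncoa2 in Tip60.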

How the data were processed

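Agilent mouse whole-genome arrays (design 014868, 43379 spots, 1639 of them controls) were read from the scanner output. The authors extracted spot intensity values with Feature Extraction 9.5.1.1, subtracting background and, on the two-colour arrays, normalizing the dyes, per the file headers. A log10 ratio of the processed signals, red over green, was deposited for each two-colour array, and the series' value table was deposited by the authors as log2 ratios and log2 signals, with steps not given in the sources used here; both served as alternatives. Gene names came from accessions (22951 probes), symbols (6659), synonyms (3109) or the file itself (8455).

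With limma 3.58.1 in R 4.3.3, two-colour arrays were corrected by normexp (offset 50) and loess and fitted with knockdown and dye terms. Single-colour arrays were fitted on log2 processed signal minus the array's 75th percentile. Outlier-flagged spots were left out. Probes entered a test if 3 or more arrays of either RNA in the comparison had them well above background, and a gene was read by the brightest of its tested probes. P-values were adjusted by Benjamini-Hochberg over all genes tested, at a threshold of 0.05, and measure the spread between these samples. The difference between knockdowns used the limma standard errors with the lower of both fits' degrees of freedom.

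The member genes, partner lists and markers were chosen with earlier results of these data known. Members past the threshold were described in full and the others by ranges. Partner genes were named from those called, and Msl3 was named after its value was seen. On simulated data holding 1.5-, 2- and 4-fold changes, the Tip60 fit recovered 70.7% of the genes changed 1.5-fold and the p400 fit 97.4%. Of all calls in these runs 3.39% and 10.4% were false. With gene spreads drawn from limma's prior, the p400 values were 70.4% and 2.15%. Far fewer genes were changed in the simulations than were called in the data, so the false shares need not hold for the data. The fit of single probes was chosen after seeing the data. Some values of single probes and genes are not reported here.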

Additional observations from a re-analysis of the deposited data

Results flagged for a closer look

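In 9 of 99 groups of 4 arrays 1 array stood apart from the other 3, where chance alone gives about 1 in 20 groups. For p400 replicate 1, the log2 ratio was -0.53 for Kat2a (others 0.01 to 0.10) and -0.58 for Kat6b (others 0.05 to 0.06). For p400 replicate 4, the Hdac11 log2 ratio was -0.057 (others -0.45 to -0.39). Tip60 replicate 1 had a Crebbp log2 level of 1.15 (others 0.96 to 0.98). Tip60 replicate 2 had levels of 2.84 for Hdac5 (others 2.53 to 2.57) and -1.39 for Hdac7 (others -1.70 to -1.68). Tip60 replicate 3, outside the fit, had an Ncoa2 level of -2.49 (others -2.22 to -2.18). Kat8 stood at 3.70 on Tip60 replicate 4 (others 3.54 to 3.56), and Sirt3 at 2.98 on EGFP replicate 1 (others 3.08 to 3.10).

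The p400 effect exceeded the Tip60 effect by 0.53 for Ep300 and by 0.54 for Ncoa3 in the test of the difference, on the log2 scale.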

How the results depend on the processing

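Of the genes counted, 14 passed in the p400 fit, 24 with median centring and 3 when 1.5-fold was also required. The Tip60 count of 10 became 17 with the array median as scale, 5 with normexp and quantile normalization, 4 in the deposited value table, 1 with no filter on dim probes, 0 and 0 within the slides and 0 when 1.5-fold was also required. The count of differences between knockdowns rose from 2 to 6 with Welch-Satterthwaite degrees of freedom and to 9 with median centring of the p400 arrays. Leaving out 1 array at a time gave 8 to 13 genes for p400, 2 to 7 for Tip60 and 0 to 1 for the difference. Median centring turned Sin3a (-0.25), Sirt2 (-0.24), Sirt4 (-0.26), Sap30l (-0.072) and Yeats2 (-0.27) below 0 in the p400 fit. It also turned Crebbp (-0.08), Hdac7 (-0.12) and Cecr2 (-0.18), called under neither setting, and in the Tip60 fit the array median as scale turned 9 uncalled genes of the 33 below 0. Beyond fewer arrays, fewer genes or the added fold limit, the cause was not tested. Over 1136 alternative values of the 34 genes, 956 kept their side of the threshold, 143 lost it, 34 gained it and 3 reversed.

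With the replicate number as a block, 1 gene (Ncoa1) passed in the Tip60 fit. Same-numbered EGFP and Tip60 arrays did not deviate together (r = -0.29, -0.38 and -0.12), but each such pair lay on different slides. The highest r (0.62, 0.46, 0.41 and 0.38) were between arrays that shared a slide. These values therefore cannot decide whether the numbers pair the samples, and the reported fit took them as unpaired. Signal near background left Hdac9 untested in the Tip60 fit.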
